A study of Mus musculus with 4 samples.

Results

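The regions described here are distal H3K27ac peaks of mouse liver sinusoidal endothelial cells (LSECs) that were called in 1 of 2 ChIP-Seq libraries only. They were selected on the peak lists themselves. A member is a peak of replicate 3 that shares no base with a peak of replicate 2 and that lies more than 2.5 kb from both ends of every protein-coding gene (GRCm38). The rule gave 30505 peaks, which is 47.3% of the 64498 peaks of replicate 3. A further 13731 distal replicate 3 peaks had a replicate 2 peak, 9699 replicate 3 peaks without one lay near a gene end, and 187 distal peaks were listed in replicate 2 only.

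The study profiled H3K27ac in isolated mouse LSECs in search of candidate regulatory elements, with attention to the genes of type IV collagen. Both libraries, named replicates 2 and 3 after the numbers in their titles, are LSECs immunoprecipitated with the same antibody lot, and each has an input library that was not analysed here. The study's methods describe LSECs taken from perfused liver with anti-CD146 beads and held in culture for 4 hours, so other CD146-positive cells can be present. The sample records state no strain, genotype, age, sex, or treatment for either library, and they do not say whether the libraries came from separate mice. As sources of LSECs, the study's methods name *Col4a1* fl/wt mice with or without *Cdh5* CreERT2, and *dCas9-KRAB* mice with *Cdh5* CreERT2. They do not tie a genotype to these libraries. The records describe sonicated chromatin and a ligation kit, whereas the paper describes fragmentation by tagmentation. Which of these applied to the libraries was not established. Sequencing depth cannot be read from the lists, which give no number of reads. With 2 libraries of 1 condition and a rule that reads both lists, no test was possible, and every value below is a description.

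Acetylation of lysine 27 on histone H3 marks nucleosomes at active promoters and active enhancers. Enhancers are stretches of DNA that bind transcription factors and raise the transcription of genes that can be far away, and many lie in introns. A narrow peak caller reports places where immunoprecipitated fragments pile up over the local background, and it gives each peak a fold enrichment (the ratio of the pileup to that background) and a q-value. LSECs line the hepatic sinusoids, take up waste molecules through scavenger receptors such as those encoded by *Stab1* and *Stab2*, and depend on transcription factors such as GATA4 for their identity. Distal H3K27ac is known to differ more between cell types than H3K27ac at promoters.

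No genome sequence was used here, so sequence was read only where a member held an annotated transcription start. A start can be distal under the rule when it is an internal start of a coding gene or the start of a long noncoding RNA (lncRNA). The sequences below are the 250 bases before the start, 5′ to 3′ on the strand of the gene, from RefSeq (GRCm38.p6). They show the strongest member with a start and the 3 genes of the gene lists whose start lay in a member. The last of them shows a window with the AP-1 motif, which was the most frequent of the 4 motifs searched. The capitals mark that motif, and windows without capitals held none of the 4. *Ids*, which encodes a lysosomal sulfatase, is read on the minus strand at chrX:70365086-70365335, and 209 of the bases lay in a member of fold enrichment 32.6. *Mef2c*, a MADS-box transcription factor of endothelium and muscle, is on the plus strand at chr13:83523406-83523655, with 103 bases in a member of fold enrichment 18.2. *Tnfaip3*, which encodes the NF-κB inhibitor A20, is on the minus strand at chr10:19011964-19012213, with all 250 bases in a member of fold enrichment 9.77. *Meis2*, a homeobox factor, is on the minus strand at chr2:116064620-116064869, with all 250 bases in a member of fold enrichment 8.79. The lncRNA *Gm36199* is on the plus strand at chr17:29434568-29434817, with all 250 bases in a member of fold enrichment 24.2.
Ids: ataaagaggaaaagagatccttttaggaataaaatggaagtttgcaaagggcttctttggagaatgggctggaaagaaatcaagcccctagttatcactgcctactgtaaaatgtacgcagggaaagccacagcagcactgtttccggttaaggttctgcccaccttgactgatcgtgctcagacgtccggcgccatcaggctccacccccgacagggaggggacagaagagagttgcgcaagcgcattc
Mef2c: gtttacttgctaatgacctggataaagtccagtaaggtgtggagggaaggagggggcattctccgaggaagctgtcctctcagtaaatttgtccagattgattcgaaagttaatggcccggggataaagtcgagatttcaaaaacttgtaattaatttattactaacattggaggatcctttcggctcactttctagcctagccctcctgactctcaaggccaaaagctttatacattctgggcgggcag
Tnfaip3: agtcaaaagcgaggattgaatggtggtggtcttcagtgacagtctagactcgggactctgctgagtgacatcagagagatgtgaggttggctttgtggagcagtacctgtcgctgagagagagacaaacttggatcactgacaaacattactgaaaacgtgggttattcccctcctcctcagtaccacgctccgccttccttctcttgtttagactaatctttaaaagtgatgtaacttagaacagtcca
Meis2: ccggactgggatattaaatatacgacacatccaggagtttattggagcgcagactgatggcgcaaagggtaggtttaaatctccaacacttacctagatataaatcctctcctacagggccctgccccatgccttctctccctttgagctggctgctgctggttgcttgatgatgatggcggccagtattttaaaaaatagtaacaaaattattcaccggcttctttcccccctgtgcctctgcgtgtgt
Gm36199: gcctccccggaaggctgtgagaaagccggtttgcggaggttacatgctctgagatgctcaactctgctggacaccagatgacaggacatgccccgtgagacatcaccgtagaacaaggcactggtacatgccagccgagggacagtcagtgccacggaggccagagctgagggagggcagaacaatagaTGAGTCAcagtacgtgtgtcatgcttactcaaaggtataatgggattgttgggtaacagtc

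Starts were rare among the members. Of the 29293 members on the chromosomes searched, 409 (1.40%) held an annotated start, 165 of them a coding start and 246 an lncRNA start. Among distal replicate 3 peaks with a replicate 2 peak, 874 of 13234 (6.60%) held one. The members with a start overlapped 451 windows of 404 genes, which had a median GC content of 52.4% and a median of 6 CpG. The 32851 windows of the whole table had the same medians, whereas the 1081 windows in shared distal peaks had 58.4% and 13 CpG. The AP-1 motif (TGANTCA, both strands) was in 12.9% of the windows in members, 7.96% of those in shared distal peaks, and 6.75% of all windows. The GATA motif (AGATAAG) was in 2.44%, 2.22%, and 2.74%. The ETS motif (ACCGGAAG) was in 1.11%, 2.31%, and 1.72%, and the SOX motif (ACAATGG) was in 2.66% of the windows in members, 27 of the 1081 windows in shared distal peaks, and 3.02% of all windows. Windows of 1 gene can overlap one another, and a match of letters is not a bound site.

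Among the members, 8 peaks overlapped the hairpin of a microRNA gene. MicroRNAs are short RNAs that pair with messenger RNAs through their seed, bases 2 to 8 of the mature sequence, shown in capitals below (RefSeq). The sequences are those of the hairpin under the strongest of these members and of the 3 hairpins whose member lay within 1 kb of a region shared by both libraries. *Mir1955* lay under a member of fold enrichment 13.9 in the body of *Phf21a*. *Mir3971* (6.56, in *Slc43a2*), *Mir22* (5.34, beside *Tlcd2*), and *Mir193a* (4.43, beside *Rab11fip4*) overlapped weaker members. Their members stood 0.08, 0.064, and 0.203 kb from the shared region. The other hairpins were those of *Mir713*, *Mir8100*, *Mir7687*, and *Mir7020*, which overlapped members of fold enrichment 4.22 to 7.49. The hairpins of *Mir22*, *Mir8100*, *Mir7687*, and *Mir7020* lay only partly within their members.
mmu-miR-1955-5p: aGUCCCAGgaugcacugcagcuuuu
mmu-miR-3971: cUCCCCACcccuguaccaguga
mmu-miR-22-5p: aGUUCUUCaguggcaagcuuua
mmu-miR-22-3p: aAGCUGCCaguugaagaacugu
mmu-miR-193a-5p: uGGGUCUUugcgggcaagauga
mmu-miR-193a-3p: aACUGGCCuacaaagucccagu

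The members were narrow and weak next to the distal peaks that both libraries held. Their median width was 253 bp, with the middle 80% of them between 160 and 436 bp, and 27.5% were under 200 bp. No peak of either list was narrower than 150 bp. Only 5.81% were wider than 500 bp, and 56 were wider than 1 kb. Distal replicate 3 peaks with a replicate 2 peak had a median width of 572 bp, and 61.4% of them were wider than 500 bp. The members therefore covered 8632 kb of the genome, against 9380 kb for the smaller number of shared distal peaks. Replicate 3 peaks without a replicate 2 peak near gene ends had nearly the same width, with a median of 269 bp.

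The fold enrichment of the members had a median of 6.27 and ran from 1.90 to 43.3, with the middle 80% between 4.23 and 12.2. The shared distal peaks had a median of 21.0 in the same library. The median −log10 of the q-value was 10.7 for the members and 75.9 for the shared distal peaks. Strength and width come from the same peak calls as the rule and are given for orientation. When all distal replicate 3 peaks were split into 5 equal groups by fold enrichment, the members made up 97.8% of the weakest group, 95.5% and 86.9% of the next 2, 57.4% of the fourth, and 7.23% of the strongest. Members thus occurred at every strength, and few of them were among the strongest distal peaks.

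**Figure D1:**
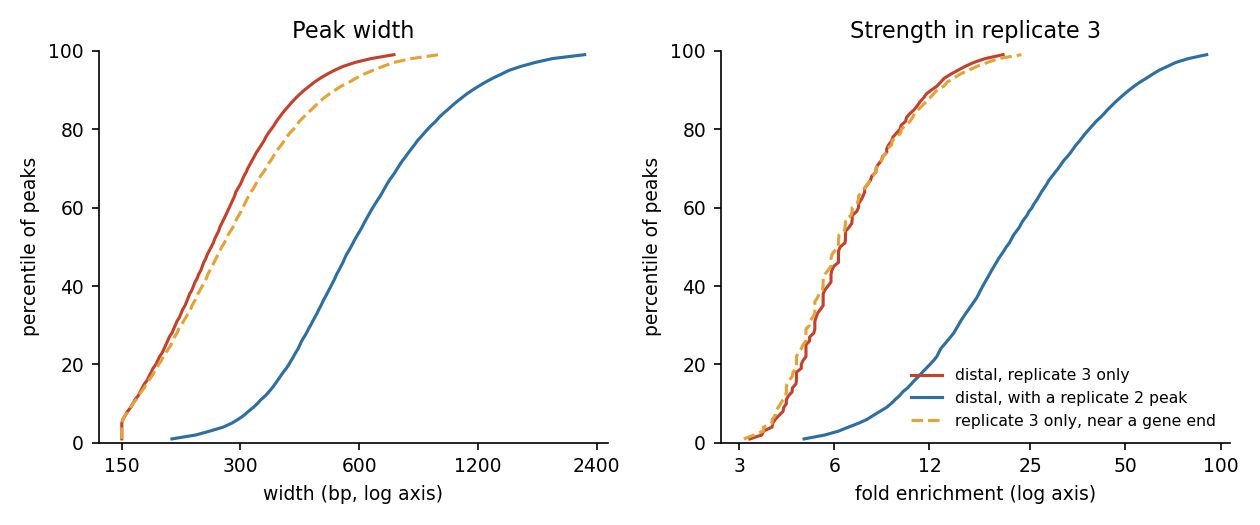
Cumulative percentiles (y axis, 1 to 99) of peak width in bp and of fold enrichment in replicate 3 (x axes, logarithmic) for distal replicate 3 only peaks, distal peaks with a replicate 2 peak, and replicate 3 only peaks within 2.5 kb of a gene end. Both replicate 3 only curves run close together, with median widths of 253 and 269 bp, and lie to the left of the shared distal peaks, whose median is 572 bp.

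Replicate 3 was also the stronger library where both had a peak. Over the 13673 distal regions with a peak of both, the median fold enrichment was 21.2 in replicate 3 and 8.81 in replicate 2. The ratio of the 2 values had a median of 2.25 (1.25 to 3.60 for the middle 80%), and replicate 3 was higher in 96.0% of the regions. The replicate 2 list reached down to a fold enrichment of 5.24 at its 5th percentile, and 31.9% of the members were below that value in replicate 3. That share compares the 2 scales without conversion. Replicate 3 values ran higher by the median ratio of 2.25, so a limit scaled to replicate 3 would have more members below it. With each list held to the same number of its strongest peaks, the rule gave 4180 members. The part that signal strength or depth played in a peak being seen in replicate 3 only was not tested.

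Peaks on either side of the 2 limits of the rule had similar values. Members 2.5 to 3 kb from a gene end (1002 peaks) had a median fold enrichment of 6.49, and the 1134 replicate 3 only peaks 2 to 2.5 kb from an end had 6.19. The 114 members with a replicate 2 peak within 100 bp had a median of 5.20, and the 41 distal replicate 3 peaks that overlapped replicate 2 peaks by at most 50 bp had 5.54.

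Most members were intragenic. Of the 30505, 18484 (60.6%) lay in the body of a protein-coding gene and 12021 (39.4%) outside all of them. The shared distal peaks had nearly the same split, with 58.9% in gene bodies. The median distance from a member to the nearest gene end was 19.4 kb, and 13.5% lay 2.5 to 5 kb from an end, 17.5% at 5 to 10 kb, 45.4% at 10 to 50 kb, 13.2% at 50 to 100 kb, and 10.5% beyond 100 kb. For the shared distal peaks the median was 22.9 kb, and 12.5% lay beyond 100 kb. Bodies of lncRNA genes held 11.98% of the members and 14.6% of the shared distal peaks, and 9448 members (31.0%) lay in neither kind of gene.

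The members were spread over all chromosomes. Chromosome 2 had the most (2425), the X chromosome had 550, and the Y chromosome had 9. Leaving out Y, members made up between 65.1% (chromosome 10) and 75.5% (chromosome 11) of the distal replicate 3 peaks of a chromosome. Across the same chromosomes, the share in gene bodies ran from 51.3% on chromosome 13 to 65.0% on chromosome 19. The median width of the members differed little between them, from 235 bp on X to 264 bp on chromosome 11.

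Whether the members flank shared regions or stand alone was read from the gap to the nearest of the 24199 merged regions that held a peak of both libraries. Flanking members, at most 1 kb away, numbered 4152 (13.6%). Another 11376 (37.3%) lay 1 to 10 kb away, and 14977 (49.1%) stood more than 10 kb from any shared region. These 14977 are said to stand alone, or to be lone, in relation to shared regions only. Of them, 7483 had another peak of either list within 10 kb, and 2031 had one within 1 kb. The median gap was 9.66 kb, with quartiles of 2.82 and 27.5 kb, and 5.43% of the members were more than 100 kb away. The members were thus of both kinds, and those that stood alone outnumbered those that flanked a shared region. The flanking share was 7.01% with equal numbers of strongest peaks and 7.21% when a shared peak needed a reciprocal overlap of 50%.

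The spacing of the shared regions themselves gives a scale for these gaps, beside 13.6% of members within 1 kb and 50.9% within 10 kb. A shared distal region had the next shared region within 1 kb in 13.1% of cases and within 10 kb in 56.4%, at a median gap of 7.73 kb. At short range, few gaps were under 50 bp, with 37 members. Gaps of 50 to 100 bp were the most frequent of the 50-bp steps, with 613 members, and the next 2 steps held 413 and 433. From 750 bp to 1 kb, each 50 bp held 129 members on average. The shared distal regions had similar shares at short range, with 1.96% within 100 bp and 8.05% within 500 bp, against 2.13% and 9.01% of the members. They showed the same rise at 50 bp, from 0.059% at 40 to 50 bp to 0.622% at 50 to 63 bp. For the members these shares were 0.039% and 0.606%.

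**Figure D2:**
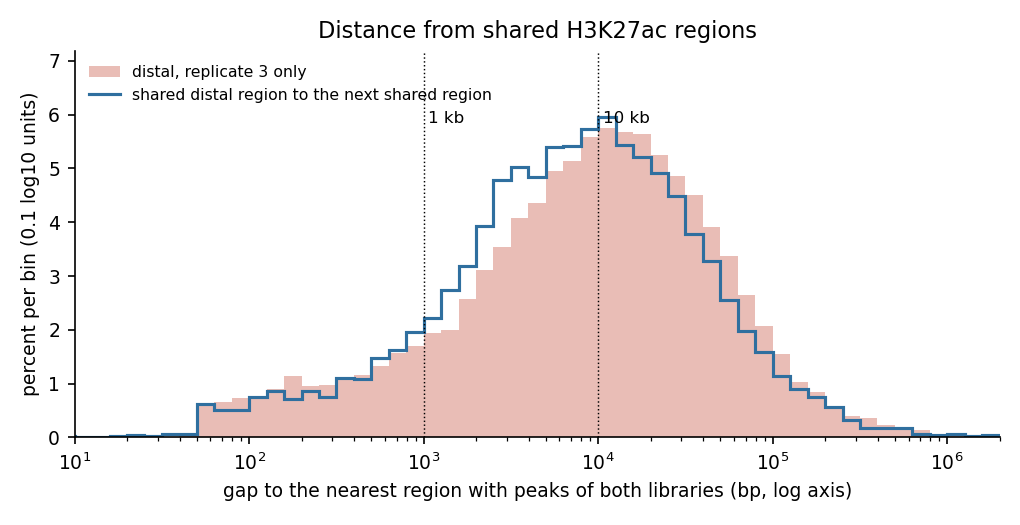
Gap in bp (x axis, logarithmic) from each distal replicate 3 only peak to the nearest region with peaks of both libraries, as percent of peaks per bin (filled), and from each shared distal region to the next shared region (line). Dotted lines mark 1 kb and 10 kb. The filled distribution has a median of 9.66 kb and the line a median of 7.73 kb. They lie close together below 1 kb, and both are highest near 10 kb.

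Flanking members had lower fold enrichments than the others. Fold enrichment is a ratio to the local background, and whether that background differed beside shared regions was not tested. Their median fold enrichment was 5.49, against 6.51 for the members at 1 to 10 kb and 6.51 for those beyond 10 kb. The median −log10 q was 8.28, 11.7, and 11.7. Width hardly differed, with medians of 249, 260, and 248 bp. Of the flanking members, 65.6% lay in gene bodies, as did 65.5% of those at 1 to 10 kb and 55.5% of those that stood alone. The lone members also lay farther from gene ends, at a median of 24.4 kb, against 19.8 kb for flanking members and 12.7 kb for those between.

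The split by gap varied between chromosomes, with X at an end of both ranges. With Y left out, the share of flanking members ran from 9.64% on X to 15.8% on chromosome 14. The share of lone members ran from 44.2% on chromosome 14 to 59.3% on X.

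**Figure D3:**
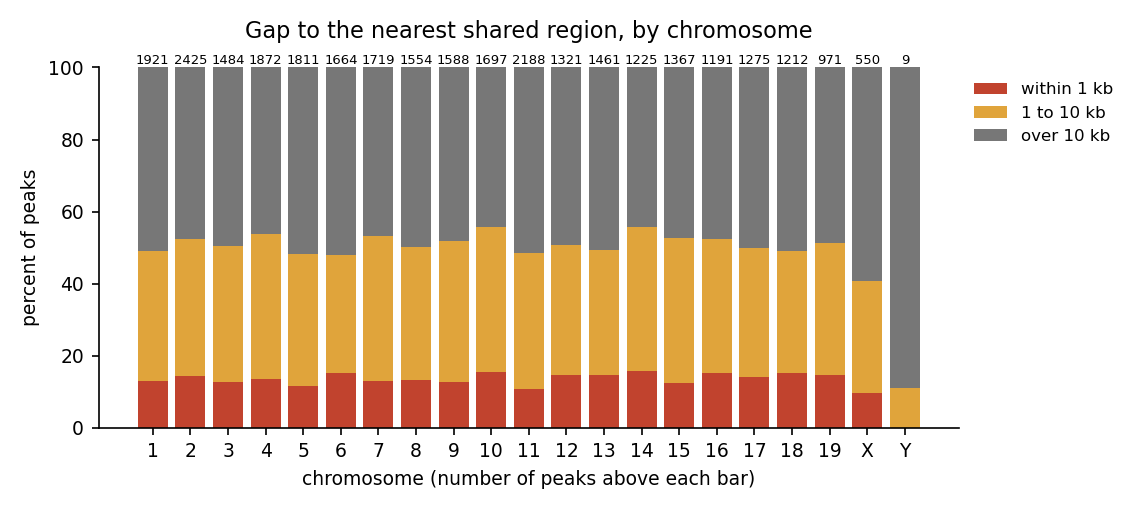
Percent of distal replicate 3 only peaks (y axis) on each chromosome (x axis) that lay within 1 kb, 1 to 10 kb, or over 10 kb from the nearest region with peaks of both libraries, with the number of peaks above each bar. The share over 10 kb ran from 44.2% on chromosome 14 to 59.3% on X, leaving out Y with 9 peaks.

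The shared region beside a flanking member was itself distal in 94.2% of cases, which the distance limit of the rule favors. Only 259 members had a shared region within 1 kb on both sides. The summit of a flanking member fell in the side of the peak nearer to the shared region in 48.7% of cases. Seen from the shared regions, 3703 (15.3%) had a member within 1 kb, and none had more than 4. Among the distal ones the share was 25.3%, and among those at gene ends, near which the rule bars members, it was 2.25%. The shared regions at gene ends were also the stronger ones, with a median fold enrichment of 39.1 in replicate 3, against 21.2 for the distal ones. With the shared regions in 4 groups by fold enrichment in replicate 3, members stood beside 16.8%, 17.2%, and 16.2% of the 3 weaker groups of shared regions and 11.0% of the strongest. These groups hold distal and gene-end regions together, and the part of the distance rule in the difference was not tested.

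Some members had no other peak nearby, and others stood in groups. Of all members, 7494 (24.6%) had no peak of either list within 10 kb, 1263 had none within 50 kb, and 509 had none within 100 kb. Members at most 10 kb apart with no shared region between them formed 20897 chains. Of these, 14859 held a single member, and 6038 held 2 or more and together took in 15646 members (51.3%). Chains of 5 or more were few, at 352, with 2072 members.

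The chains with the most members lay over *Neat1*, *Ednrb*, *Plpp3*, and *Sema6a*. The first, with 17 members over 16.2 kb (chr19:5819556-5835762), lay partly over *Neat1*, the lncRNA that scaffolds nuclear paraspeckles, and partly beside it. Its members had fold enrichments of 3.34 to 9.07, and shared regions stood 0.929 and 0.094 kb from its ends. Since *Neat1* does not code for protein, its own ends did not count under the rule. The second had 14 members over 18.8 kb (chr14:103818858-103837705) in *Ednrb*, which encodes the endothelin B receptor, and in the overlapping lncRNA gene *Gm35197*. *Plpp3*, a lipid phosphate phosphatase of endothelium, held 13 (chr4:105162648-105192300), and *Sema6a*, a transmembrane semaphorin, also held 13 (chr18:47345675-47368388). There were 3 chains of 11 members. The longest of them lay in *Dab2ip*, a Ras GTPase-activating protein gene (39.1 kb, chr2:35613870-35653001), and the others in the adhesion receptor gene *Adgrf5* and over *Cpm* and *Mdm2*. Among lncRNA genes, *A930011G23Rik* held the most members with 24, followed by *Gm35197* with 23 and *Pvt1* with 19. *Pvt1*, which neighbors *Myc*, also held 17 shared distal peaks, whereas *Neat1* held 12 members and 1 shared distal peak.

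Gene bodies with a member were common. Of 21883 protein-coding genes, 6065 had at least 1 (27.7%), and 14699 had at least 1 in the body or within 50 kb of it (67.2%). Of the 6065, 2761 had exactly 1 and 372 had 10 or more. In 3317 of them replicate 3 had no shared distal peak in the body. Long genes offer more room: among the 4944 genes of at least 50 kb, 62.9% held a member, at a median of 1.13 members per 100 kb.

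The genes with the most members were long. *Arhgap26*, a GTPase-activating protein, held 47 members over 775 kb, with 18 shared distal peaks. *Tcf4*, an E-box transcription factor, held 43 with 21 shared, and *Prkce*, a protein kinase C, held 37 with 12 shared. *Rbms1*, which encodes an RNA-binding protein, held 36, *Pde4d*, a phosphodiesterase gene, 33, and *Ptprm*, a receptor phosphatase gene, 32. *Fyn*, a Src-family kinase gene, and *Zmiz1*, a transcriptional coregulator gene, held 31 each, *Sash1* 30, and *Cmip* 29, equal to *Rapgef2*. The members in these genes were of ordinary strength, with medians from 5.06 in *Tcf4* to 6.51 in *Prkce*. They differed in how the members lay. In *Arhgap26*, 30 of the 47 stood more than 10 kb from a shared region, whereas in *Sash1*, a signaling scaffold, none of the 30 did and 13 were flanking.

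Per 100 kb of gene body, the order changed, and 2 of the first 5 genes were on the list of endothelial transcription factors. Among genes of at least 50 kb, *Plpp3* was first with 28 members in 75.4 kb, which is 37.1 per 100 kb, beside 6 shared distal peaks. *Gata4*, a zinc finger factor that specifies LSECs, was second with 20 members and 27.5 per 100 kb. *Elk3*, an ETS-family repressor, followed with 17 members and 26.7 per 100 kb. *Sh3bp5* (25.2) and *Ostf1* (23.3) came next. The 99th percentile of these genes was 15.7 per 100 kb.

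In *Gata4* the members interleaved with the shared peaks. All 20 lay within 10 kb of a shared region and 7 within 1 kb. Their fold enrichments ran from 3.54 to 11.8, with a median of 5.48. In *Elk3*, 9 of 17 members were flanking, and the strongest (11.5, chr10:93291856-93292170) stood 0.085 kb from a shared region. In *Plpp3*, by contrast, 6 of 28 stood beyond 10 kb, and its chain of 13 filled a stretch of the body without a shared peak.

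**Figure D4:**
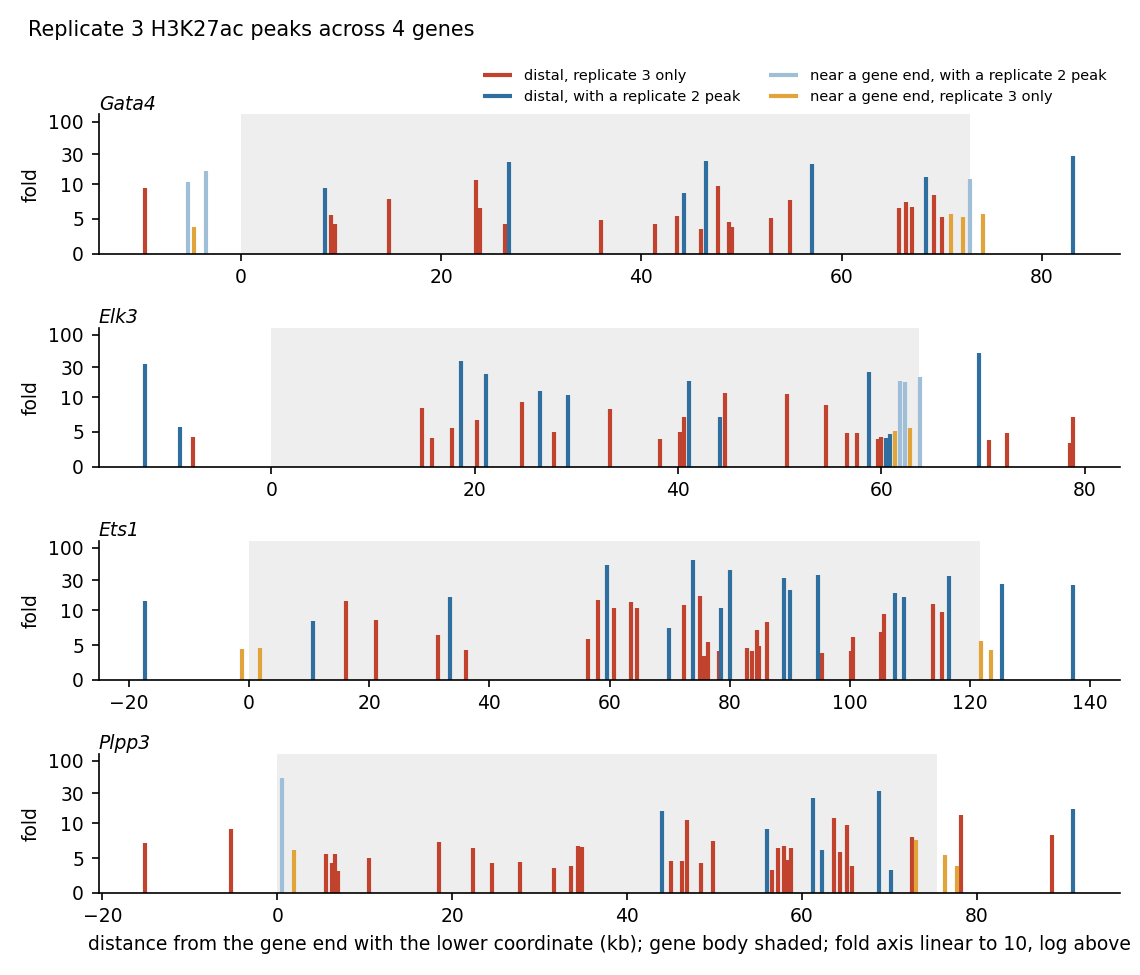
Replicate 3 peaks across *Gata4*, *Elk3*, *Ets1*, and *Plpp3*, placed by distance in kb from the gene end with the lower coordinate (x axis, gene body shaded), with fold enrichment as the height of each line (y axis, linear to 10 and logarithmic above); line widths are not to scale. Distal replicate 3 only peaks (20, 17, 26, and 28 in the bodies) stand among shared peaks, of which the tallest exceed every such peak in each body, and in *Plpp3* a run of them lies where no shared peak was called.

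The marker genes of LSECs all held members. All 18 genes of the LSEC list had at least 1 member in the body, where 27.7% of all genes did, and they held 133 members and 59 shared distal peaks in total. *Ptprb*, a vascular receptor phosphatase, held 19 (3.58 to 19.7), *Flt4*, the receptor of VEGF-C, held 14, *Cdh5*, the VE-cadherin gene, held 13, and *Stab2* held 13. *Kdr*, the main VEGF receptor gene, held 11, and *Mrc1*, which encodes the mannose receptor, held 9. *Pecam1* and *Tek* had 4 each and *Stab1* had 3. *Lyve1*, the hyaluronan receptor gene used to mark LSECs, held 1 member of 9.44 (chr7:110859201-110859484), and *Clec4g*, a sinusoidal lectin gene, held 1 of 13.0 (chr8:3717647-3718166). Both of those members flanked a shared region, at 0.614 and 0.296 kb.

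*Flt4* and *Fli1*, singled out after their values were seen, held many members and few shared distal peaks. *Flt4* held 14 members and 2 shared distal peaks in 43.1 kb. The strongest of the 14 (27.1, 1096 bp, chr11:49620815-49621910) lay between the shared ones, which had 18.3 and 33.0 in replicate 3 and no more than 7.46 in replicate 2. *Fli1*, an ETS factor of endothelium and blood, held 17 members of 3.54 to 10.1 and 2 shared distal peaks, and 10 of the 17 stood beyond 10 kb. *Cdh5* held 13 members of 2.89 to 7.81 and 7 shared peaks of 7.30 to 60.3, so the ranges overlapped only at their ends.

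The lists of other cells differed from one another in how many genes held a member, where 27.7% of all genes did. Among 13 hepatocyte genes, only *Hnf4a*, a nuclear receptor of hepatocytes, had a member in its body (7.69% of the list, 3 members of 8.12 to 13.7), and *Alb*, *Apob*, and *Cyp2e1* had none. Of 12 hepatic stellate cell genes, 5 had members (41.7%), which is above the share of all genes. They were *Reln* (3), *Acta2*, *Col1a1*, *Pdgfra*, and *Pdgfrb* (1 each), and *Lrat*, *Des*, and *Dcn* had none. *Csf1r* was the single gene with members of 10 Kupffer cell genes (2). None of 8 lymphocyte genes had one. Of 12 genes of tissues absent from liver, *Rbfox3* had 6 and *Pax6* had 2, all of which stood in the 1-to-10-kb or lone groups. The median gene length was 11.2 kb for hepatocyte, 26.4 kb for stellate cell, 19.4 kb for Kupffer cell, 8.78 kb for lymphocyte, and 10.2 kb for absent-tissue genes. It was 42.98 kb for LSEC genes and 17.2 kb for all genes, and the part of gene length in these counts was not tested.

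With the 50 kb around each gene added, every list had more genes with a member, apart from the LSEC list, in which all had one already. The LSEC list had a member at 18 of 18 genes, the hepatocyte list at 9 of 13, the stellate cell list at 8 of 12, the Kupffer cell list at 4 of 10, the lymphocyte list at 4 of 8, and the genes of absent tissues at 10 of 12, where 67.2% of all genes had one. The number per gene still differed, with a median of 10 members at LSEC genes and 2 at all genes. The median was 2 at hepatocyte, stellate cell, and absent-tissue genes, 0.5 at lymphocyte genes, and 0 at Kupffer cell genes.

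Endothelial transcription factors held members in 18 of 26 bodies (69.2%, against 27.7% of all genes), 240 in all beside 114 shared distal peaks. The median length of these genes was 48.4 kb, and 62.9% of all genes of at least 50 kb held a member. After *Tcf4*, the most were in *Ets1* (26, of 3.36 to 16.7), *Gata4* (20), *Erg* (18), and *Elk3*, *Fli1*, *Mef2c*, and *Meis2* (17 each). The ETS factors Ets1, Erg, and Fli1 bind the promoters and enhancers of most endothelial genes. The 8 genes with none in the body differed in the number within 50 kb. *Sox7* had 12, *Klf2*, the shear-stress factor gene, 9, *Maf* 8, *Hhex* 4, *Sox17* and *Sox18* 1 each, and *Klf4* and *Gata6* 0. *Tal1* held 2 members and no shared distal peak.

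Of 22 angiocrine and vascular signaling genes, 18 held members (81.8%, against 27.7% of all genes), 129 in all with 64 shared distal peaks. Their median length was 46.1 kb, again well above that of all genes. The semaphorin and VEGF co-receptor genes *Nrp2* and *Nrp1* held 17 and 16, and *Flt1*, a decoy VEGF receptor gene, held 15. *Bmp6*, the iron-regulating ligand that LSECs secrete, held 13 with 8 shared, and *Calcrl*, an adrenomedullin receptor gene, held 13 with 8 shared. The Wnt pathway ligand genes *Wnt9b*, *Rspo3*, and *Wnt2* had 3, 2, and 2. The bodies of *Wnt9b*, *Rspo3*, and *Hgf* (3 members), a hepatocyte growth factor gene, held no shared distal peak, and all members in them stood more than 10 kb from a shared region.

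**Figure D5:**
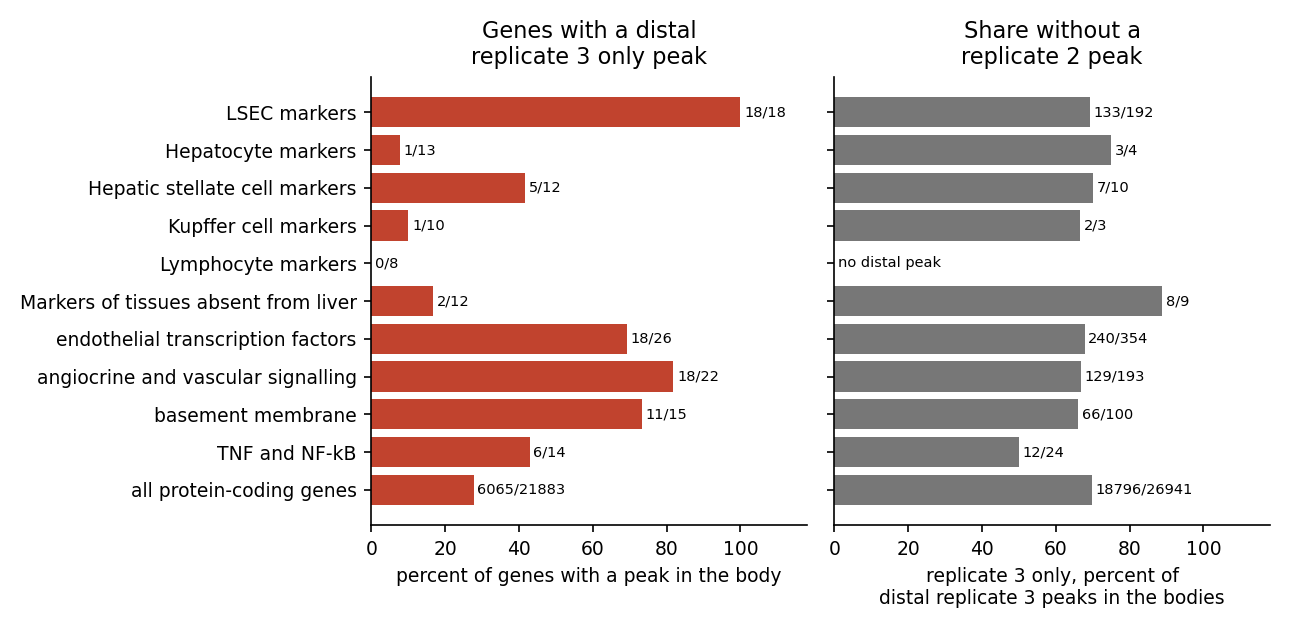
Left, percent of the genes of each list with a distal replicate 3 only peak in the body (x axis; counts at the bars). Right, distal replicate 3 only peaks as percent of all distal replicate 3 peaks in those bodies. The left bars range from 0 of 8 lymphocyte genes to 18 of 18 LSEC genes. On the right, the endothelial and basement membrane lists lie between 66.0% and 69.3%, near the 69.8% of all genes. The shortest lists rest on 10 or fewer peaks.

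The endothelial and basement membrane lists had many distal peaks, and the share that replicate 2 lacked was near that of all genes. Members made up 69.3% of the distal replicate 3 peaks in LSEC genes, 67.8% in endothelial transcription factor genes, 66.8% in angiocrine and vascular genes, and 66.0% in basement membrane genes. In TNF and NF-κB genes it was lower, with 12 members of 24 distal peaks. Over all genes the share was 69.8%, with a peak counted once for each gene that holds it. Some genes, such as *Gata4*, *Kdr*, *Flt4*, *Tek*, and *Eng*, are on more than 1 list.

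Of 15 basement membrane genes, 11 held members (73.3%, against 27.7% of all genes), 66 in all. These are long genes, with a median of 113.9 kb, and their share stood nearer to the 62.9% of all genes of at least 50 kb. *Col4a1* and *Col4a2* encode the α1 and α2 chains of type IV collagen and lie head to head on chromosome 8. *Col4a1* held 13 members of 164 to 615 bp, with fold enrichments of 3.81 to 12.4, beside 6 shared distal peaks of 17.6 to 35.8 in replicate 3 and 6.78 to 19.0 in replicate 2. The members and the shared peaks did not overlap in strength. The strongest member (12.4, chr8:11300447-11301061) stood 14.6 kb from a shared region, as part of a group of 3 lone members on the side of the body towards *Col4a2*. The next (11.1, chr8:11255500-11256026) stood 2.22 kb from a shared region.

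*Col4a2* held 9 members of 153 to 493 bp, with fold enrichments of 3.63 to 10.0, beside 8 shared distal peaks of 12.7 to 41.0 in replicate 3 and 5.11 to 18.3 in replicate 2. Here too the members lay below all shared peaks. Its strongest member (10.0, chr8:11335205-11335553) stood 4.66 kb from a shared region, and 1 member (4.82, chr8:11340999-11341491) lay only 0.071 kb from the shared peak with the highest fold enrichment in the body. Across both genes, 3 of 22 members were flanking and 6 stood alone. Of the other basement membrane genes, those with the most members were *Lama4*, a laminin chain of vessels, with 12, *Hspg2*, which encodes perlecan, with 10, and *Sparc*, a collagen-binding glycoprotein, with 6.

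Of 14 TNF and NF-κB genes, 6 held members (42.9%, against 27.7% of all genes), 12 in all beside 12 shared distal peaks. *Nfkb1*, which encodes the p105 precursor of p50, held 6 (4.72 to 15.2) beside 7 shared. *Tnfaip3* had 2 and *Nfkb2*, *Rel*, *Relb*, and *Tnfrsf1a* had 1 each. The 8 genes with none in the body had between 1 (*Traf2*) and 9 (*Nfkbie*, an inhibitor gene) within 50 kb, and the median of the list was 4.

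Some members were far stronger than the rest. The strongest, in *Lat2* (43.3, chr5:134611653-134612438), was 786 bp wide and stood 15.2 kb from the nearest shared region. *Lat2* encodes an adaptor of immune receptor signaling. Then came peaks near *Nkain1* (38.7), *Bcl10*, an adaptor of NF-κB signaling (37.1), *Slfn8* (36.5), and *Eif4b*, a translation initiation factor (36.1). *Hdac7*, which encodes a class IIa deacetylase of endothelium, held the sixth (35.8, chr15:97823889-97824435). It was the only one of the first 10 that flanked a shared region, at 0.469 kb. The other 4 lay in *Syngr1* (34.2), *Myl4* (33.5), and *Mrc2* (33.5) and near *Scd2*, a fatty acid desaturase gene (33.2). All 10 were above at least 84.8% of all replicate 3 peaks in fold enrichment. The one near *Slfn8* stood 141 kb from a shared region, and the one in *Mrc2*, an endocytic collagen receptor gene, stood 129.5 kb away.

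The widest members were of another kind. *Arhgap31*, a GTPase-activating protein gene, held the widest (1935 bp, chr16:38678842-38680776), with a fold enrichment of only 7.83, at 0.187 kb from a shared region. *Agpat2*, an acyltransferase gene (1696 bp), and *Macf1*, a cytoskeletal linker gene (1626 bp), also held a flanking member. The fourth (1603 bp) belonged to the chain at *Neat1*, and the fifth lay in *Rxra*, a nuclear receptor gene (1534 bp). None of the 5 was among the 10 strongest.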

How the data were processed

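The deposited files are 1 peak list per H3K27ac library, made by the authors per library and not on pooled libraries. In the deposited lists the fold enrichment is a ratio of pileup to background. Significance was deposited as −log10 of a p-value and of a q-value. The authors' score column follows the q-value and was not used. The deposited coordinates, summit offset, and other columns were read as given. The submitters' processing notes name, with no role or order, mm10, cutadapt 0.4.4, BWA 0.7.17, Picard 1.67, MACS2 2.0.10, and bedtools 2.27.1. Whether the calls used the input libraries is not stated in the sources used here. Peaks were listed up to q-values of 0.00907 (replicate 2) and 0.00981 (replicate 3). A deeper or more enriched library gives more peaks, so every count here depends on both lists. The libraries are 2 samples of 1 group.

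Peaks, gene ends, and gene bodies (RefSeq, GRCm38.p6, 21883 protein-coding genes) were compared with Python 3.11.15, numpy 2.4.6, pandas 2.3.3, and scipy 1.17.1, and the code was tested on simulated peaks. An overlap was 1 bp or more. Peaks of both lists that overlapped were merged, and a merged region with peaks of both was called shared. Gaps run from edge to edge. The named genes are those with the 10 strongest and 5 widest members, the 10 with the most members, the 5 with the most per 100 kb (bodies of at least 50 kb), the chains with the most members, *Col4a1*, *Col4a2*, the gene lists, and microRNA hairpins. The members and the lists were chosen with earlier results of these data known, and 1 further marker list is not reported here. Sequence was searched only in the 32851 start windows, among which chromosome 18 was not analysed here, and motifs were not searched at the summits of the members.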

Additional observations from a re-analysis of the deposited data

How the results depend on the processing

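The 5 main values of the members (their number, the share in gene bodies, the median width, the share within 1 kb of a shared region, and the share beyond 10 kb) were recomputed under other settings, and 20 of 33 values moved beyond the limits used (1.5 times for the number, the Wilson interval of a share, and the binomial interval of a median, at 95%). These intervals cover counting of peaks only. The number of members moved most when each list was held to the same number of strongest peaks, which left 4180 members. With that setting, 59.0% lay in gene bodies, the median width was 377 bp, 7.01% were flanking, and 54.3% stood alone. A q-value of 1e-05 or less in both lists gave a median width of 268 bp, 11.5% flanking, and 52.3% alone. When a reciprocal overlap of 50% was asked for a peak to count as shared, the median width was 282 bp, 7.21% were flanking, and 67.5% stood alone. With the ends of every annotated gene, 63.9% lay in gene bodies and 13.1% were flanking. The share in gene bodies was 61.2% at 1 kb from gene ends and 60.0% (59.97%) when replicate 2 peaks within 1 kb were also barred. Flanking members were 9.01% within 500 bp and 20.1% within 2 kb, and lone members were 64.8% beyond 5 kb and 13.5% beyond 50 kb. Without replicate 2, all 44236 distal replicate 3 peaks qualify, 60.1% of them in gene bodies, with a median width of 310 bp. Without replicate 3 there are no members. The share in gene bodies thus moved little, and the number moved beyond its limit only with equal numbers of strongest peaks. The gap classes depended on the peak threshold and on what counts as shared. Members that stood alone outnumbered flanking ones in each setting for which these shares were recomputed, apart from the 50 kb limit. The shares were not recomputed for the other distances from gene ends, with nearby replicate 2 peaks barred, or without replicate 2. No paired analysis was possible because both libraries are of 1 condition and the inputs with the same numbers were not analysed here. The depth of the libraries is unknown, so a region without a replicate 2 peak is one where none was called, not one without the mark.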

Other observations

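Many of the fold enrichments in the lists fall on a ladder. Of all values, 54.0% in replicate 2 were whole multiples of 0.678 and 47.5% in replicate 3 were whole multiples of 0.326, within 0.01 of a step. Among the members the share was 50.3%. What a step stands for, such as 1 read over the background, was not established. The converse set was small: 187 distal peaks were listed in replicate 2 only, with a median width of 150 bp and a median fold enrichment of 5.42, and 102 of them (54.5%) lay in gene bodies. That median width is also the smallest width in either list.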
